A study of Mus musculus with 30 samples.

Results

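The 7 fibrillar collagen genes of the mouse aorta, Col1a1, Col1a2, Col3a1, Col5a1, Col5a2, Col5a3 and Col11a1, were followed by gene symbol through 30 bulk RNA-seq libraries. All 7 symbols were found among the 26253 genes listed. Col3a1 carries the mutation of this mouse model of vascular Ehlers-Danlos syndrome (VEDS), a disorder of type III collagen with rupture of large arteries. The libraries came from the descending thoracic aorta of male mice on a C57BL/6J background. According to the labels the adventitia was removed, while the methods name only the removal of perivascular fat. There were 6 libraries from wild-type (WT, control) untreated mice, 6 from untreated heterozygous (Het, VEDS, Col3a1 G938D/+) mice, 6 from control mice given hydralazine and 6 from VEDS mice given hydralazine. A further 3 VEDS mice received hydralazine with bicalutamide (HB) and 3 received hydralazine with spironolactone (HS). Hydralazine, a vasodilator, was given in drinking water from birth at 32 mg/kg/day. Bicalutamide, an androgen receptor antagonist, at 50 mg/kg/day, or spironolactone, an antagonist of the androgen and mineralocorticoid receptors, at 100 mg/kg/day, was added in chow from day 21 until tissue was taken at day 60. The groups given hydralazine alone were taken at day 30 or day 60, and the methods describe 3 aortas at each age in these groups and in the untreated groups, but the labels give no age for any library and the same batch for all of them. Nor do they number replicates, so the replicate numbers used here follow the order of the samples within a group and serve only as names.

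Fibrillar collagens form the rope-like fibrils that give the arterial wall its tensile strength. Each chain winds with other chains into a triple helix in which glycine must open every triplet of residues, since only glycine is small enough for the helix core. Type I collagen is built from Col1a1 and Col1a2 chains, with more of the former than of the latter. Type III collagen is a homotrimer of Col3a1 chains and is abundant in vessel walls. Type V collagen, built from Col5a1, Col5a2 and in some tissues Col5a3, and type XI collagen, which holds Col11a1 and is best known from cartilage, sit inside fibrils and help to set their number and diameter.

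The reading frames of the 7 chains share 1 uninterrupted repeat of triplets that begin with glycine. In the GENCODE M21 transcripts (GRCm38) it ran for 338 triplets in Col1a1, 339 in Col1a2, 344 in Col3a1, 338 in Col5a1, 339 in Col5a2, 337 in Col5a3 and 338 in Col11a1. Col3a1 thus had the longest repeat of the 7, from residue 164 to residue 1195 of 1464 codons. The codon changed in this model, number 938, lies inside that repeat and in its glycine position. It is shown because it is what separates the groups by genotype, as the reference reads it, 5′ to 3′ on the coding strand, with codon 938 in capitals:
Col3a1 codon 938: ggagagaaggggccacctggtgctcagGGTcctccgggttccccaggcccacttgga
All 7 codons in glycine position within this stretch of 57 bases begin with GG, as glycine codons do. The name G938D gives glycine as the reference residue and D, aspartate, as the change. Gene totals do not separate the alleles, so a Col3a1 count does not check the genotype labels.

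Promoter sequence of 250 bases before the annotated start was found in the RefSeq table (GRCm38.p6) for 5 of the 7 genes, Col1a2, Col3a1, Col5a1, Col5a3 and Col11a1. The windows of Col3a1 and Col1a2 are printed because, of all genes compared with Col3a1, Col1a2 was most like it across libraries, as described below. They are given 5′ to 3′ in the direction of transcription, Col3a1 from chr1:45311288-45311537, plus strand, and Col1a2 from chr6:4505368-4505617, plus strand, with matches on either strand to the CCAAT box, to the GC box core GGGCGG or to the TATA box letters TATAAA in capitals:
Col3a1: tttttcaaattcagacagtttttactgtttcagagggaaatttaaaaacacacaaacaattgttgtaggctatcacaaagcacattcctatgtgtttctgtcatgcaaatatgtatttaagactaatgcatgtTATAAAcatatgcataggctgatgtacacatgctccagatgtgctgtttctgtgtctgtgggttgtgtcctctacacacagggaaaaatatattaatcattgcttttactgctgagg
Col1a2: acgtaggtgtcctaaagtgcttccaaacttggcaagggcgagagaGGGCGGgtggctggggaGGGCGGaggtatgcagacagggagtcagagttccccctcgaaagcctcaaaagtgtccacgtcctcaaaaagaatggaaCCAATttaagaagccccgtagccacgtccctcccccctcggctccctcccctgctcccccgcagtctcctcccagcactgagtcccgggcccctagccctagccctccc
The Col3a1 window held 35.2% G and C and the Col1a2 window 62.0%, against a median of 52.4% over all 32851 promoters of the table. Col3a1 matched TATAAA, 117 bases before the start, and neither CCAAT nor GGGCGG. Col1a2 matched GGGCGG at 205 and 188 bases and CCAAT at 109 bases before the start. Among all promoters 12.4% held TATAAA, 32.7% GGGCGG and 33.8% CCAAT. The string AGAACA, found in steroid receptor elements, was held by 16.1% of all promoters and by none of the 5 collagen windows, which says only that these letters were not in these windows.

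The libraries held between 5517510 and 8293289 counts each. Levels below are in CPM, the count divided by the TMM-scaled library total and expressed on a common total. Of the 30 libraries 3 stood apart in cardiac or heat shock transcripts. Control hydralazine replicate 5 and HB replicate 2 carried 427 and 403 CPM of Myh6, a heart muscle myosin, and HS replicate 3 carried 709 CPM of Hspa1b, an inducible heat shock chaperone. Liver transcripts were present in every library and varied most, the summed level of 8 hepatocyte markers running from 209 to 20005 CPM, with Alb, which encodes albumin, between 47.5 and 10859 CPM. The smooth muscle markers that define the media were present, all 8 having counts in every library, with a summed level between 15641 and 29748 CPM. All 12 fibroblast markers also had counts in every library (3725 to 5350 CPM summed). In these bulk samples fewer cells of a type and less RNA per cell cannot be told apart. Each library is labelled as a sample of its own, and the methods describe separate aortas but give no litter or homogenisation batch by library.

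Col3a1 was the most abundant of the 7 genes per transcript length. On the TPM scale, which corrects for length, its mean over the 30 libraries was 1160, and it ranked 22nd of all genes. Col1a2 followed at 570 TPM, Col1a1 at 254, Col5a2 at 126, Col5a1 at 65.1, Col5a3 at 3.73 and Col11a1 at 0.15. This order held in all 30 libraries for every neighbouring pair except Col1a1 and Col5a2, where Col1a1 was higher in 25 of 30. In the 5 exceptions, VEDS untreated replicate 3, control hydralazine replicates 1, 4 and 6 and VEDS hydralazine replicate 6, the Col5a2 level exceeded that of Col1a1. The 7 genes together took between 0.875% and 3.29% of a library's counts.

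**Figure D1:**
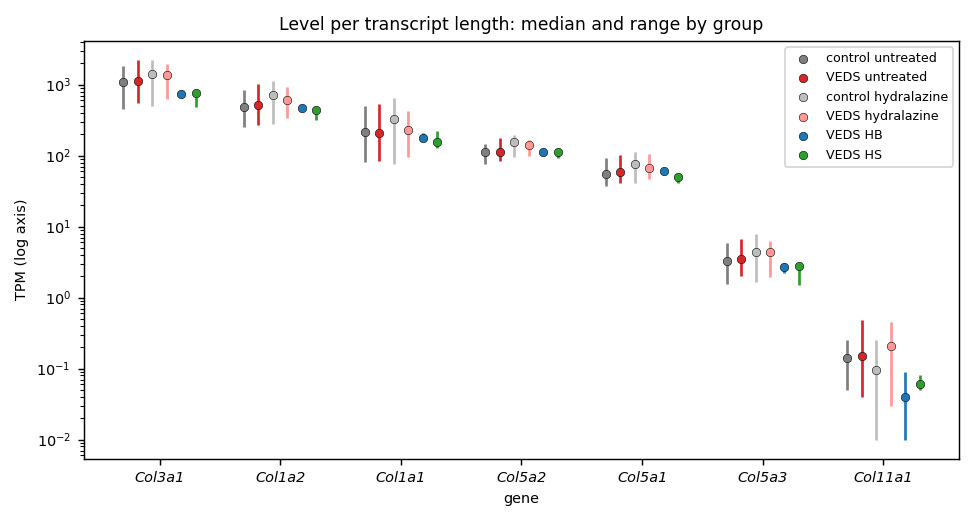
Median (points) and lowest to highest library (lines) of the TPM of each gene in the 6 groups, on a log axis. Col3a1 lies highest in every group, and the group ranges of each gene overlap widely.

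Within each group of 6, the libraries fell into separate clusters for Col3a1, with no value between them. In untreated controls, Col3a1 stood at 5334, 4474 and 4316 CPM in replicates 1 to 3 and at 14561, 15051 and 16249 CPM in replicates 4 to 6. In untreated VEDS aortas it stood at 5335, 5444 and 4711 CPM in replicates 1 to 3 and at 13568, 17690 and 16122 CPM in replicates 4 to 6. The wild-type and mutant ranges therefore covered one another, and the step within each group was far wider than any difference between genotypes.

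Under hydralazine the same picture was seen. Control replicates 1, 4 and 6 had 4416, 7710 and 5092 CPM of Col3a1 and replicates 2, 3 and 5 had 16718, 16697 and 16042 CPM. VEDS replicates 1, 2 and 6 had 7501, 5450 and 5764 CPM and replicates 3, 4 and 5 had 14647, 15262 and 14688 CPM. Control hydralazine replicate 5, which carried Myh6, lay with the higher libraries. The labels do not say which libraries are from day 30 and which from day 60, so age cannot be told apart from other differences between these clusters, and no test was made between them.

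The other collagens followed Col3a1. In all 24 combinations of the other 6 genes with the 4 groups of 6, the 3 libraries highest for a gene were the 3 highest for Col3a1. Among the 9348 genes with a mean of at least 10 CPM, 225 (2.41%) had those same 3 libraries highest in each of the 4 groups, among them Col3a1 itself and the other 5 collagens above that limit. More genes, 394 (4.21%), had those 3 libraries lowest in all 4 groups. In 21 of the 24 combinations the widest step on the log scale also parted 3 lower from 3 higher libraries. The 3 exceptions were Col5a2 and Col11a1 in control hydralazine and Col5a3 in VEDS hydralazine.

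**Figure D2:**
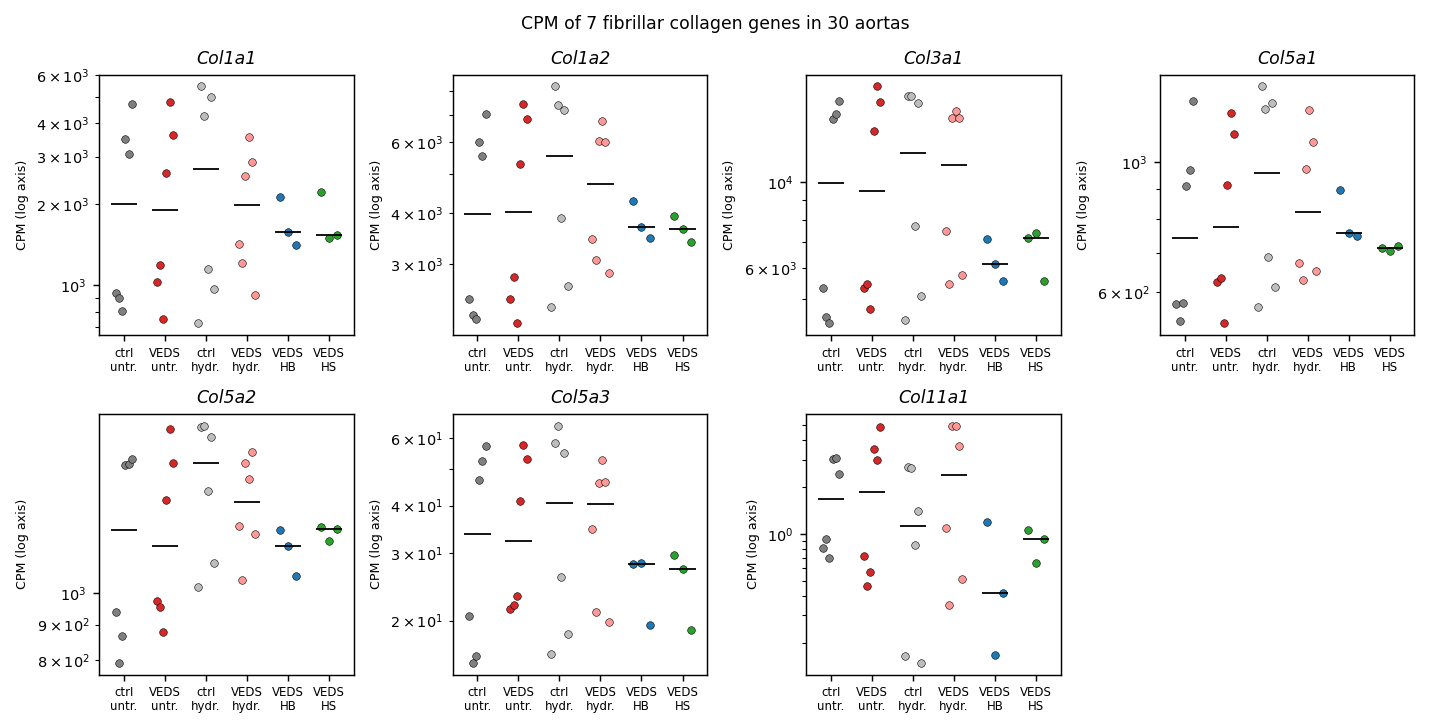
CPM of each gene (log axes) in every library, by group, with the group median as a bar. In each group of 6 the same 3 libraries lie highest for every gene, and the 3 HB and 3 HS libraries lie within the range of the untreated VEDS libraries for all genes but Col5a3 and Col11a1.

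The size of the step differed between genes. For Col1a1, the lowest of the 3 higher libraries exceeded the highest of the 3 lower ones 3.27-fold in untreated controls (937 to 3065 CPM) and 2.19-fold in untreated VEDS aortas (1189 to 2603 CPM). For Col1a2 the factors were 2.25 and 1.90, for Col3a1 2.73 and 2.49. For Col5a2, the factors were 1.63 and 1.40, and across all 7 genes and 4 groups they ran from 1.17 to 4.13. The lowest was Col5a2 in VEDS hydralazine and the highest Col11a1 in untreated VEDS aortas, where it rests on few counts. In each of the 4 groups the steps of Col1a1, Col1a2 and Col3a1 were wider than those of Col5a1 and Col5a2.

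Likeness to Col3a1 was measured as Pearson's r of log2 CPM over 30 libraries after the group means were subtracted. It is given as a description, since the clusters within groups enter every value and libraries share their depth and composition. Col1a2 was the most alike of 9347 genes (r = 0.992). Col5a3 (0.977), Col1a1 (0.972), Col5a2 (0.970) and Col5a1 (0.968) ranked 12th, 17th, 20th and 21st. Col11a1, whose mean of 1.73 CPM was below the limit of 10 CPM set for this ranking, had r = 0.921.

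The 10 genes outside the family most like Col3a1 were Eln (0.991), Adamts2 (0.988), C1qtnf6 (0.986), Loxl2 (0.986), Pxdn (0.986), Col6a3 (0.985), Sparc (0.983), Nid1 (0.982), Adamts12 (0.981) and Fbn1 (0.980). Eln encodes elastin, Adamts2 a protease that trims procollagen ends, and Loxl2 a cross-linking enzyme. Pxdn encodes a peroxidase of basement membranes and Sparc a collagen-binding matrix protein. The 5 genes with the lowest r were Nox4 (-0.947), Ric3 (-0.942), Fth1 (-0.940), Sparcl1 (-0.938) and Anxa1 (-0.936). In all, 79 genes had r above 0.9 and 31 had r below -0.9.

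In both untreated groups, the cell cycle level was higher in the libraries with more collagen, though by less in control replicate 6. For the hydralazine groups only the ranges of this level are given, 36.1 to 153 CPM in controls and 42.6 to 189 CPM in VEDS aortas. The summed level of 8 such genes was 21.4, 37.0 and 26.2 CPM in untreated VEDS replicates 1 to 3 and 139, 142 and 130 CPM in replicates 4 to 6. In untreated controls it was 23.8, 25.8 and 21.4 CPM in replicates 1 to 3 and 159, 283 and 49.8 CPM in replicates 4 to 6. Control untreated replicate 6, with the highest Col3a1 and Col1a1 of its group, thus had a cell cycle level well below those of replicates 4 and 5. Hepatocyte markers differed likewise in some groups. Their summed level was 1371, 7949 and 2950 CPM in untreated control replicates 1 to 3 and 11814, 12582 and 12608 CPM in replicates 4 to 6, but 209, 1968 and 8062 CPM and 20005, 3867 and 1544 CPM in the untreated VEDS replicates in that order. The part of dividing or liver cells in the collagen levels was not tested.

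**Figure D3:**
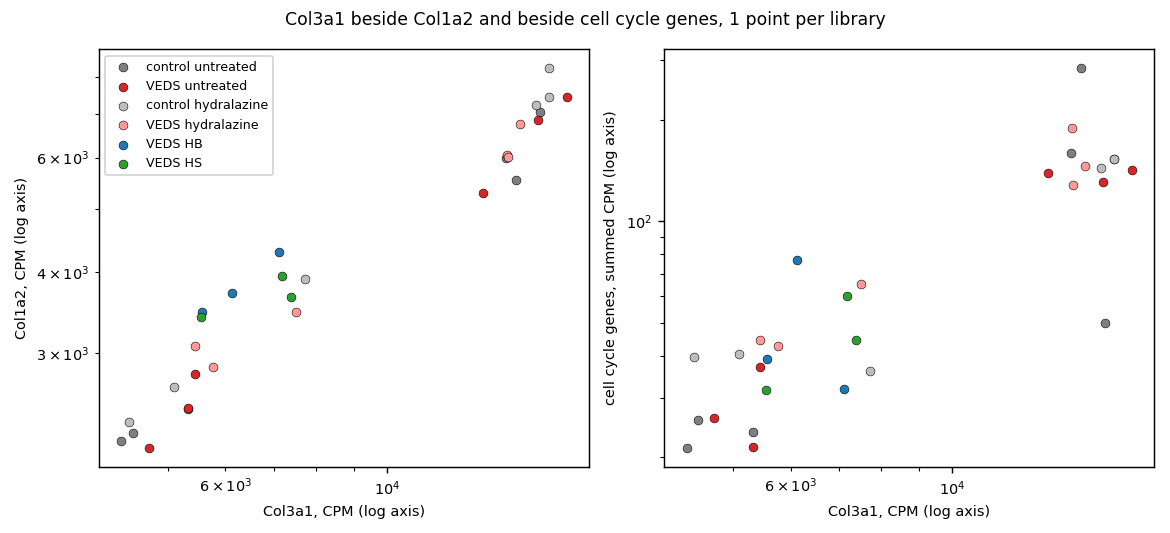
Col3a1 CPM against Col1a2 CPM (left) and against the summed CPM of 8 cell cycle genes (right), 1 point per library, all axes logarithmic. Col1a2 follows Col3a1 closely, and the grey point at lower right is control untreated replicate 6.

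The comparison of VEDS with control aortas asked whether the mutant allele is accompanied by a change in collagen transcripts. No difference passed the test. In untreated aortas Col3a1 was 9998 ± 5831 CPM in controls and 10479 ± 5974 CPM in VEDS aortas (mean ± SD, n = 6 each), a log2 fold change of 0.065 with a standard error of 0.46 (adjusted p = 1.00 by edgeR's quasi-likelihood test). All 7 members entered the fit. At an adjusted p of 0.05, 0 were called, where the background was 0% of 12976 genes, and before adjustment 0 had a p below 0.05. Their log2 fold changes lay between 0.0052 (Col1a1) and 0.24 (Col11a1), with standard errors between 0.23 and 0.61. DESeq2 called 0 members in this and in each of the other 10 comparisons.

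Under hydralazine, Col1a1 ranged from 723 to 5461 CPM in controls (median 2689) and from 923 to 3540 CPM in VEDS aortas (median 1986). The ranges overlapped, and the log2 fold change was -0.48 ± 0.53 (SE, adjusted p = 0.959, edgeR). Of the 6 members that entered the fit 0 were called, against 0% of 12966 genes, and 0 had a p below 0.05 before adjustment. Col11a1 did not pass the count filter in this comparison. Over both treatments the log2 fold change of Col3a1 was -0.0063 ± 0.32, and 0 of 7 members were called against 0% of 13235 genes. For the interaction of genotype and hydralazine, 0 of 7 were called against 0% of 13407 genes, and that of Col3a1 was -0.15 ± 0.64. With standard errors of this size, a difference in Col1a1 or Col3a1 of 1 log2 unit or even more could have gone uncalled after the adjustment. The lack of calls therefore does not show equal levels.

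Hydralazine alone was compared with no treatment within each genotype. In VEDS aortas Col5a2 ranged from 878 to 1724 CPM without treatment (median 1169) and from 1043 to 1597 CPM with hydralazine (median 1356). In controls it ranged from 793 to 1564 CPM (median 1235) and from 1018 to 1746 CPM (median 1542). The ranges overlapped in both genotypes, with log2 fold changes of 0.14 ± 0.18 and 0.27 ± 0.21 (SE). In VEDS aortas 0 of 7 members were called, against 0% of 13006 genes. In controls 0 of 6 were called, against 0% of 12951 genes, and before adjustment 0 had a p below 0.05 in either genotype. These comparisons share the untreated or treated libraries with those of genotype.

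**Figure D4:**
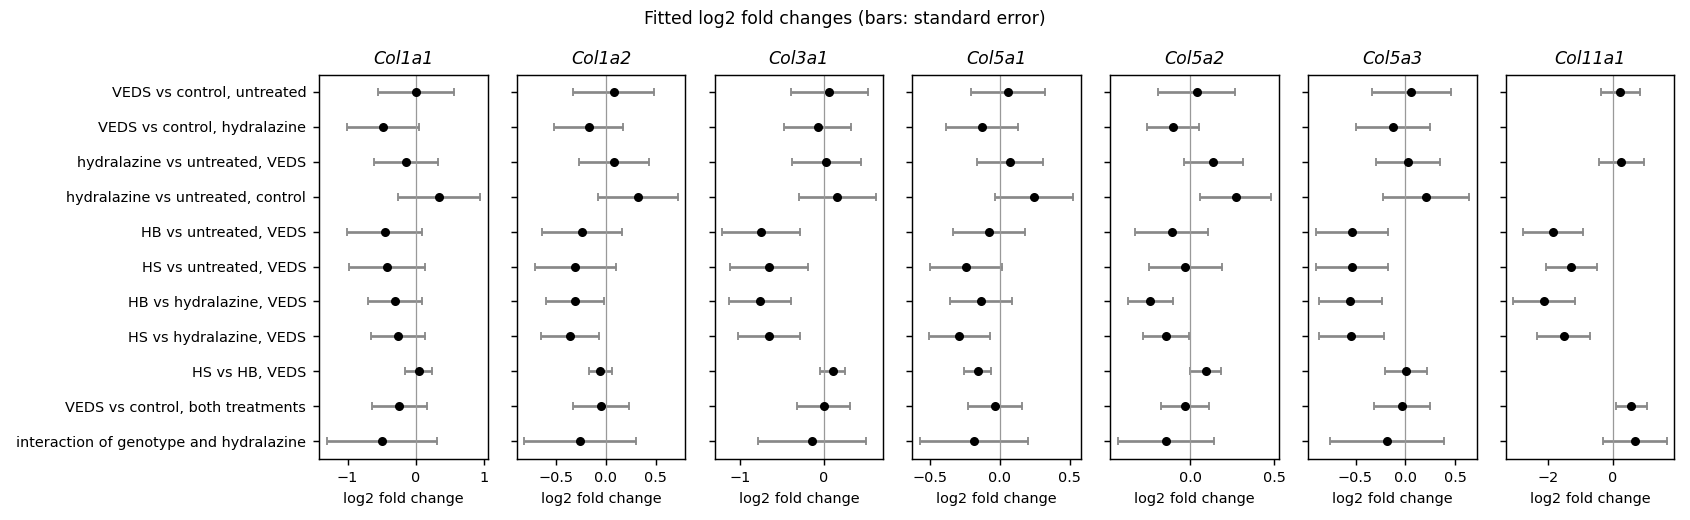
Fitted log2 fold changes of the 7 genes (points) with their standard errors (bars) in 9 pairwise comparisons, over both treatments and for the interaction. Col11a1 has no point where it did not pass the count filter, and no value passed the adjusted threshold.

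All HB and HS aortas were from day 60, while the untreated and hydralazine groups mix both ages. Treatment and age therefore cannot be told apart in the comparisons that follow. In HB aortas Col3a1 stood at 7113, 6130 and 5561 CPM, and in HS aortas at 7171, 7381 and 5549 CPM. Every HB and HS value lay above the 3 lower and below the 3 higher untreated VEDS values. The same position was taken by all HB and HS values of Col1a1, Col1a2, Col5a1 and Col5a2, while HB and HS values of Col5a3 and Col11a1 also lay among or below the 3 lower untreated ones.

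Against untreated VEDS aortas, the log2 fold change of Col3a1 was -0.75 ± 0.46 in HB (adjusted p = 0.443) and -0.66 ± 0.46 in HS (adjusted p = 0.615), both by edgeR. Of the 7 members, 0 were called in HB, against 0.409% of 13204 genes, and 0 in HS, against 0.309% of 13276 genes. All 7 fitted values were below 0 in both, and before adjustment 0 had a p below 0.05. Of all genes tested, 47.2% in HB and 48% in HS were above 0. The 7 genes vary together across libraries, so these are not 7 separate signs. Leaving out 1 library could change the sign of Col5a1 and Col5a2 in HB and of Col5a2 in HS. The HB and HS comparisons share the untreated libraries. Without the 3 libraries that stand apart Col3a1 gave log2 fold changes of -0.73 ± 0.57 in HB and -0.52 ± 0.56 in HS.

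Against hydralazine alone, with Col3a1 between 5450 and 15262 CPM, the log2 fold change of Col3a1 in HB was -0.76 ± 0.37 (adjusted p = 0.349, edgeR). In HS it was -0.66 ± 0.37 (adjusted p = 0.447). Of the 7 members 0 were called in HB, against 0.0151% of 13266 genes, and 0 in HS, against 0% of 13304 genes. Among the 7 only Col11a1 in HB was below 0.05 before adjustment, with a log2 fold change of -2.12 ± 0.96 (edgeR, adjusted p = 0.323). It rests on 7, 1 and 3 counts in the HB libraries and 2 to 33 in the hydralazine libraries.

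HS and HB aortas are matched for age. Col5a1 was 715, 704 and 719 CPM in HS and 895, 758 and 747 CPM in HB. All HS values lay below all HB values, as was the case, in either direction, for 13.6% of the 12800 genes tested. The log2 fold change of HS over HB was -0.16 ± 0.097 (edgeR, adjusted p = 0.783). The other 5 members tested overlapped, and of the 6 tested 0 were called, against 0% of 12800 genes, with 0 below 0.05 before adjustment. For Col3a1 the log2 fold change was 0.10 ± 0.15, and 0.21 ± 0.15 without HB replicate 2 and HS replicate 3.

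Ratios between chains do not depend on how a library is scaled. They were taken per effective length, as log2 ratios of counts plus 0.5. Col3a1 exceeded Col1a2 2.10-fold in untreated controls (1.84 to 2.55 over libraries) and 2.12-fold in untreated VEDS aortas (1.83 to 2.40). The ratio was 1.91 in control hydralazine aortas and 2.03 in VEDS hydralazine aortas. Genotype and hydralazine thus left it within the spread between libraries, with log2 differences between -0.14 and 0.086.

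Col3a1 to Col1a2 was lowest in the combined treatments. On the log2 scale the ratio was 0.63, 0.63 and 0.58 in HB aortas and 0.77, 0.92 and 0.61 in HS aortas. All 3 HB values lay below all 6 values of untreated VEDS (0.87 to 1.26) and of VEDS hydralazine aortas (0.73 to 1.19). The difference from untreated VEDS aortas was -0.47 log2 units, with a two-sided exact permutation p of 0.0238, the smallest that 3 against 6 libraries allow, and 0.190 after adjustment over the 8 ratios. Of 13204 genes, 0.666% likewise had a ratio to Col1a2 that did not overlap between these groups.

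Against hydralazine alone the HB difference was -0.40 log2 units (exact permutation p = 0.0238, adjusted 0.0952), and 3.54% of 13266 genes had a ratio to Col1a2 without overlap. The log2 ratio of Col3a1 to Col1a1 was 1.84, 2.05 and 2.07 in HB aortas and 2.20 to 2.74 with hydralazine, without overlap. The difference was -0.47 log2 units (exact permutation p = 0.0238, adjusted 0.0952), and 3.13% of genes had a ratio to Col1a1 without overlap. In HS aortas, Col3a1 to Col1a2 differed from untreated VEDS aortas by -0.32 log2 units (exact permutation p = 0.0476, adjusted 0.190), with overlap. If the two-sided p is instead counted from absolute differences, both HB ratios reach an adjusted exact permutation p of 0.0476 against hydralazine, so the call depends on that convention. Without HB replicate 2 the differences from hydralazine were -0.41 (Col3a1/Col1a2) and -0.50 log2 units (Col3a1/Col1a1), both with an adjusted exact permutation p of 0.286. So few HB libraries then remain that this test could not pass the threshold, whatever the differences.

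Within type V collagen, Col5a2 exceeded Col5a1 in every library. The ratio of Col5a1 to Col5a2 was 0.448, 0.464 and 0.455 in HS aortas, against 0.472 to 0.566 in untreated VEDS aortas and 0.568, 0.506 and 0.552 in HB aortas. The HS values lay below all values of both groups. The differences were -0.19 log2 units from untreated VEDS aortas (exact permutation p = 0.0238, adjusted 0.190) and -0.25 from HB (exact permutation p = 0.1, the smallest that 3 against 3 allow, adjusted 0.8). A ratio to Col5a1 without overlap was held by 1.24% of 13276 genes in the first comparison and 19% of 12800 genes in the second. In VEDS hydralazine aortas this ratio ran from 0.418 to 0.656 and covered both combinations.

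**Figure D5:**
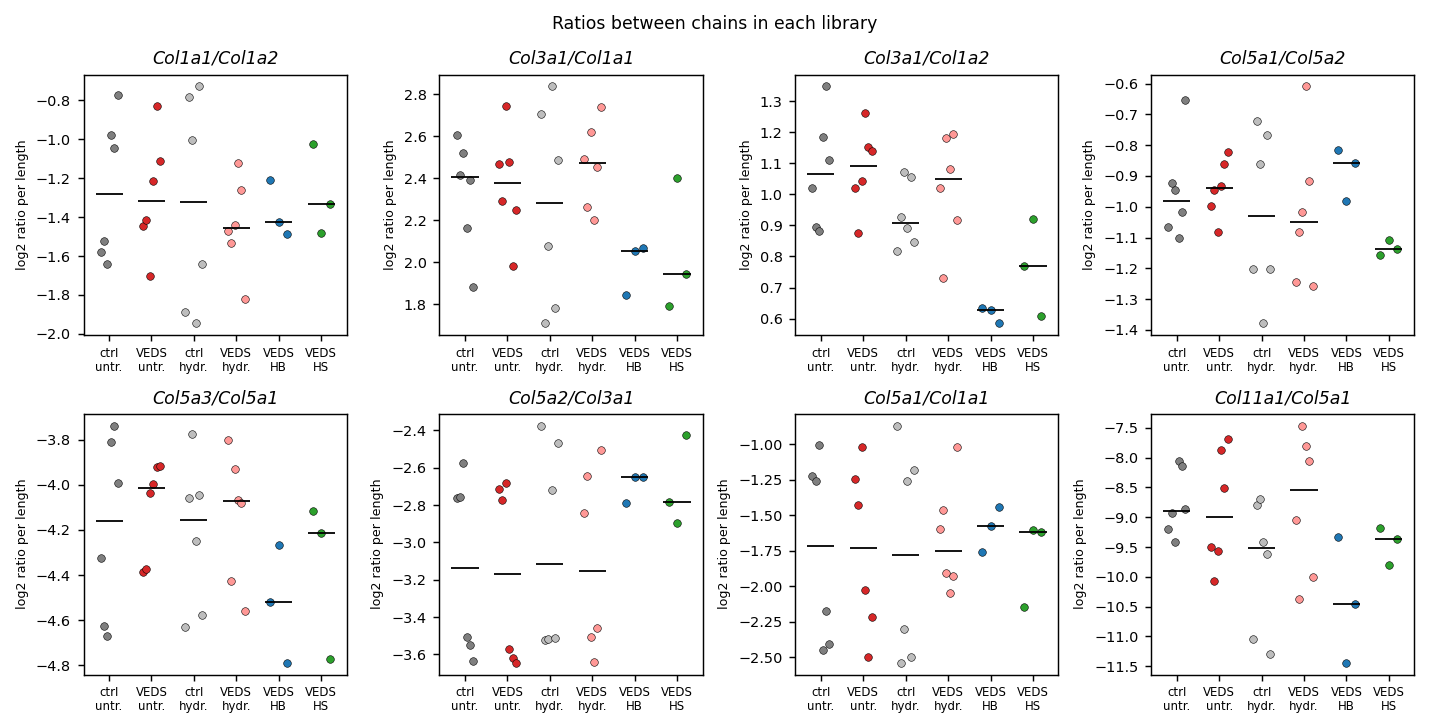
Log2 ratios between chains per effective length in every library, by group, with the group median as a bar. For Col3a1/Col1a2 the 3 HB libraries and HS replicate 3 lie below all libraries of the groups of 6, for Col5a2/Col3a1 the groups of 6 part into 3 and 3, and the 3 HS libraries lie close together for Col5a1/Col5a2.

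Col5a2 to Col3a1 set a fibril-regulating chain against the most abundant one. In untreated controls the ratio was 0.147, 0.148 and 0.168 in replicates 1 to 3 and 0.088, 0.085 and 0.080 in replicates 4 to 6. In untreated VEDS aortas it was 0.153, 0.146 and 0.156 in replicates 1 to 3 and 0.084, 0.081 and 0.080 in replicates 4 to 6. Since Col3a1 is the denominator, these values restate its wider step beside that of Col5a2.

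In HB aortas the same ratio was 0.145, 0.160 and 0.159 and in HS aortas 0.145, 0.135 and 0.186. Over the VEDS hydralazine libraries it ran from 0.0801 to 0.177, which covered the HB values. The HB difference from untreated VEDS aortas was 0.47 log2 units (exact permutation p = 0.143, adjusted 0.229), with overlap. Genotype moved it by -0.035 log2 units without treatment (exact permutation p = 0.738, adjusted 0.968) and by -0.081 with hydralazine (exact permutation p = 0.708, adjusted 0.851).

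The scarcer chains were set against Col5a1. Col5a3 to Col5a1 ran from 0.0392 to 0.0749 in untreated controls, from 0.0478 to 0.0661 in untreated VEDS aortas and from 0.0362 to 0.052 in HB aortas. The HB difference from untreated VEDS aortas was -0.42 log2 units (exact permutation p = 0.0714, adjusted 0.190), with overlap. Col11a1 to Col5a1 rested on 1 to 33 Col11a1 counts per library and overlapped in every comparison.

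Col1a1 to Col1a2 was the ratio of the type I chains, and it spread widely within groups. It ran from 0.321 to 0.586 in untreated controls, from 0.307 to 0.562 in untreated VEDS aortas and from 0.259 to 0.604 in control hydralazine aortas. HB (0.357 to 0.433) and HS aortas (0.358 to 0.492) fell inside these ranges. The Col1a1 transcript was therefore below that of Col1a2 per length in every library. Over all 10 comparisons and 8 ratios, 0 of 80 differences passed the adjustment over the 8 ratios. The 8 tests of HS against HB could not pass, since 3 against 3 libraries allow no exact permutation p below 0.1. With 3 against 6 libraries the smallest exact permutation p, 0.0238, passes only where several of the 8 ratios reach it. In these comparisons the lack of calls is therefore no sign that ratios were equal.

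Genes that work on or around fibrillar collagens were counted from lists. In untreated aortas, 0 of 23 tested genes of chain folding and procollagen trimming and 0 of 5 cross-linking enzymes were called between genotypes. Likewise 0 of 18 fibril-associated matrix genes, 0 of 9 collagen receptors and 0 of 7 genes of collagen breakdown were called. The background was 0% of 12976 genes, so these counts set no list apart. The median log2 fold changes of these lists, in that order, were 0.027, 0.033, 0.064, -0.020 and 0.15. They stand beside 0.0034 over all genes and 0.062 over the 7 fibrillar collagens. The genes with the smallest p of these lists in that order were Plod1 (0.24 ± 0.15), a lysyl hydroxylase, Loxl4 (0.095 ± 0.17), Dcn (0.11 ± 0.078), which encodes decorin, Itga2 (0.18 ± 0.15), a collagen-binding integrin chain, and Ctsk (0.30 ± 0.25), a collagen-cleaving protease, and none of them passed the test.

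In HB against untreated VEDS aortas, Ddr1 was the 1 gene called of the 62 tested from these 5 lists (1.61%), against 0.409% of all 13204 genes. Ddr1 encodes a receptor tyrosine kinase that binds fibrillar collagen. It stood at 41.3, 35.1 and 44.2 CPM in HB aortas and between 22.4 and 27.5 CPM in untreated VEDS aortas (median 24.9). It rose by 0.68 ± 0.097 log2 units (edgeR, adjusted p = 0.0298), and the call was lost without any 1 of the 3 HB libraries or without untreated VEDS replicate 2, 3 or 6 (without HB replicate 2, 0.77 with an adjusted p of 0.0620). Ddr1 was 28.6 to 37.7 CPM in VEDS hydralazine aortas, and HB over hydralazine was 0.27 ± 0.10 (edgeR, adjusted p = 0.262). In HS against untreated VEDS aortas, 0 genes of these lists were called, against 0.309% of 13276 genes. Ddr1 had 0.48 ± 0.13 there (edgeR, adjusted p = 0.189). The other lists had these genes with the smallest p against untreated VEDS aortas. In HB they were Pcolce2 (0.28 ± 0.11), Loxl1 (0.32 ± 0.11), Bgn (0.51 ± 0.092, edgeR, adjusted p = 0.0523) and Timp2 (0.24 ± 0.074). In HS they were Pcolce2 (0.46 ± 0.094), Loxl2 (-0.44 ± 0.26), Col12a1 (0.55 ± 0.13) and Mmp14 (-0.41 ± 0.23). None of them was called. Counts called in other comparisons were 0 for all 5 lists, where at most 0.0151% of all genes tested were called.

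Markers of other cell types were checked beside these comparisons. In HB aortas, Dpep1, 1 of 12 fibroblast markers, was 33.2, 37.6 and 37.2 CPM, against 55.7 to 75.6 CPM in untreated VEDS aortas, and fell by 0.83 log2 units (edgeR, adjusted p = 0.0123), a call lost without any 1 of the 3 HB libraries (0.0620 without HB replicate 2). The summed fibroblast level was 4324 to 4741 CPM in HB, 4529 to 5113 CPM in HS and 4092 to 4690 CPM in untreated VEDS aortas. Gsn, with a median of 1664 CPM over all libraries, weighs most in this sum. In HB against untreated, Gsn (0.20), Serpinf1 (0.094) and Pi16 (0.034) were above 0 and the other fibroblast markers below 0. In HS against untreated the fibroblast markers went both ways. The summed smooth muscle level was 25332 to 28043 CPM in HB, 21512 to 23018 CPM in HS and 17126 to 29748 CPM in untreated VEDS aortas. Every smooth muscle marker had a fitted value above 0 in HB against untreated, from 0.074 (Tagln) to 0.64 (Des). Of all genes 47.2% did. Against hydralazine they ran from 0.19 (Lmod1) to 0.50 (Des) in HB. In HS against HB every one was below 0, from -0.094 (Tagln) to -0.72 (Des), where 53.7% of all genes were above 0. In HS against untreated they went both ways, from -0.10 (Smtn) to 0.082 (Cnn1). Their part in the collagen values was not tested. The other marker lists had 0 genes called in these comparisons, where at most 0.409% of all genes tested were called.

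Markers of tissues outside the vessel wall differed more. The summed hepatocyte level was 891 to 1184 CPM in HB, 292 to 2447 CPM in HS, 209 to 20005 CPM in untreated VEDS and 2565 to 15050 CPM in VEDS hydralazine aortas. All 8 hepatocyte markers had fitted values below 0 in HB and in HS against both groups, with median log2 fold changes between -2.66 and -2.15. The median of the summed adipocyte level was 341 CPM in HB, 346 CPM in HS and 857 CPM in untreated VEDS aortas. The range of untreated VEDS aortas overlapped those of HB and of HS. All 8 adipocyte markers had fitted values below 0 in HB against untreated (median -0.93). In HS against untreated these markers went both ways. Cfd (0.57), Lep (0.48) and Retn (0.29) were above 0. Adipoq (-0.082), Cidec (-0.29), Plin1 (-0.56), Cidea (-1.01) and Ucp1 (-2.63) were below 0. The summed cardiomyocyte level was 253, 872 and 279 CPM in the HB libraries and 143 to 253 CPM in untreated VEDS aortas. All 5 markers tested had fitted values above 0 in HB (median 3.58). The 872 CPM came from HB replicate 2, set apart above for its Myh6, so these fitted values may rest largely on that library. No fit without it is given for these markers. Endothelial and macrophage markers had medians of -0.073 and -0.029 in HB and 0.13 and -0.041 in HS against untreated VEDS aortas. The part of these tissues in the collagen values was not tested.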

How the data were processed

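The authors sequenced bulk RNA of 30 mouse aortas, and the deposited values, per the labels, are RSEM gene estimates against mm39: expected counts (not normalised), TPM and effective lengths. Per the methods, TruSeq stranded total RNA libraries were read as pairs on a NovaSeq instrument, base calls were converted with CASAVA 1.8.4, and RSEM was run with STAR in its reverse-stranded setting, so reads of antisense genes were kept apart. RSEM shares out reads that fit several genes. Expected counts were rounded (97.6% of all values and 210 of 210 member values were whole within 1e-06). Library totals were 5517510 to 8293289 counts. Groups came from the labelled genotype and treatment. Genes were filtered with filterByExpr and fitted with edgeR 4.0.16 (R 4.3.3; TMM, quasi-likelihood F test, Benjamini-Hochberg over all genes, calls at 0.05), separately for the libraries of each comparison. DESeq2 1.42.0 served as an alternative. The procedures were tested on simulated data, which for the edgeR fits held no clusters within groups like those seen in the groups of 6. Levels are CPM from TMM-scaled totals. Chain ratios used a pseudocount of 0.5 counts and two-sided exact permutation tests with the smaller tail doubled (a convention settled after 2 ratios had been called with absolute differences, which is reported as an alternative), with 100000 permutations within treatment for genotype over both treatments, adjusted over 8 ratios within a comparison. No fit used age, which is not labelled by library, or batch, whose label is the same in all 30. The members, the 15 gene lists, the promoter motifs and the tests were chosen with earlier results of these data known. Named genes were all members and the 10 highest and 5 lowest correlations with Col3a1 at a mean of at least 10 CPM. Per list, up to 3 called genes with the smallest adjusted p were named. Where none was called, the 1 gene with the smallest p was named for the 5 collagen-related lists only. This was done for genotype without treatment and for HB and HS against no treatment. Further genes are named where marker lists are described. Correlations within groups had been planned with tests but are not given, because the libraries of each group of 6 fell into separate clusters, which was seen only in the data. The p-values were judged against the spread between these samples, which in the groups of 6 includes the step between the clusters.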

Additional observations from a re-analysis of the deposited data

How the results depend on the processing

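No paired analysis was possible because the labels carry no replicate numbers, and those used here are names given in sample order. No member was called in any of the 11 comparisons under any alternative run: other size factors (RLE), DESeq2, no filter, a mean of at least 1 CPM, 1 fit of all libraries, without the 3 libraries that stand apart, and leaving out each library. Planned correlations within groups and their alternatives were not run. Of the chain ratio counts, 1 moved: with the p taken from absolute differences, an alternative chosen after seeing the data, 2 ratios in place of 0 were called for HB against hydralazine. No depth limit other than the few counts of Col11a1 was apparent, and the width of the groups limits every fold change.

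Signs of small differences changed. Without the filter, Col1a1 for genotype without treatment was -0.0019. Without the 3 libraries that stand apart, Col3a1 for genotype under hydralazine was 0.056, and for genotype over both treatments Col1a2 was 0.011, Col3a1 0.062, Col5a1 0.015 and Col5a3 0.028. In that setting the ratio differences became 0.013 (Col1a1/Col1a2), 0.051 (Col5a1/Col5a2) and -0.032 (Col5a1/Col1a1) for genotype under hydralazine, 0.034 (Col3a1/Col1a1) and 0.13 (Col5a1/Col1a1) for hydralazine in controls, and -0.0078 (Col5a1/Col1a1) for genotype over both treatments. The cause was not tested.

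Leaving out 1 library at a time, log2 fold changes with a sign change ran, for genotype without treatment, from -0.34 to 0.34 (Col1a1), -0.12 to 0.28 (Col1a2), -0.15 to 0.26 (Col3a1), -0.080 to 0.23 (Col5a1), -0.079 to 0.13 (Col5a2), -0.12 to 0.26 (Col5a3) and -0.15 to 0.45 (Col11a1). For genotype under hydralazine they ran from -0.33 to 0.00020 (Col1a2), -0.24 to 0.081 (Col3a1), -0.25 to 0.0017 (Col5a1) and -0.28 to 0.078 (Col5a3). For hydralazine in VEDS aortas they ran from -0.38 to 0.20 (Col1a1), -0.082 to 0.28 (Col1a2), -0.14 to 0.24 (Col3a1), -0.071 to 0.21 (Col5a1), -0.12 to 0.21 (Col5a3) and -0.040 to 0.64 (Col11a1). In controls they ran from -0.0096 to 0.35 (Col3a1) and -2.8e-05 to 0.41 (Col5a3). For HB against no treatment they ran from -0.18 to 0.059 (Col5a1) and -0.20 to 0.0066 (Col5a2), for HS from -0.11 to 0.089 (Col5a2), and for HS against HB from -0.17 to 0.23 (Col1a1), -0.12 to 0.035 (Col1a2) and -0.15 to 0.19 (Col5a3).

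Ratio differences, with each HB or HS library left out in turn, ran for HB against hydralazine, from -0.014 to 0.12 (Col1a1/Col1a2) and -0.0082 to 0.15 (Col5a1/Col1a1), for HS against HB from -0.034 to 0.19 (Col1a1/Col1a2), -0.12 to 0.18 (Col3a1/Col1a1) and -0.14 to 0.092 (Col5a2/Col3a1), for HS against no treatment from -0.12 to 0.11 (Col1a1/Col1a2) and -0.14 to 0.13 (Col5a1/Col1a1), and for HS against hydralazine from -0.22 to 0.050 (Col5a1/Col1a1). Ddr1 in HB was 0.61 to 0.77 and stayed called in 3 of 9 such fits, Dpep1 was -0.87 to -0.77 and stayed called in 6 of 9. Counts over all genes depended on the tool: DESeq2 called 556 against 54 genes for HB and 282 against 41 for HS against no treatment, 574 against 2 and 52 against 0 against hydralazine, and 34 against 0 for HS against HB. Under hydralazine alone and between genotypes DESeq2 called 0 to 7 genes and edgeR 0. With 1 fit of all libraries 141 genes were called for HS against no treatment. Leaving out 1 library at a time gave 2 to 529 genes for HB and 0 to 104 for HS against no treatment, in both most without VEDS untreated replicate 1, and 1 to 56 for HB against hydralazine. Without the libraries that stand apart, 2 and 1 genes were called for HB and HS against no treatment.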

Other observations

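The remaining fibrillar collagen genes were scarce in these aortas, apart from Col27a1. Col27a1 was between 21.8 and 54.0 CPM over the 30 libraries and Col11a2 between 2.46 and 8.30 CPM. Col2a1, the cartilage collagen, was at 0 counts in 8 libraries and reached 1.03 CPM at most, and Col24a1 was at 0 in 3 libraries and reached 2.22 CPM. Matn1 and Bglap, markers of cartilage and bone, were at 0 in 28 and 26 libraries, while Acan and Comp were detected in every library, at 26.0 to 63.5 CPM and 7.45 to 59.9 CPM.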
